A study of Mus musculus with 40 samples.

Results

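Glycogen synthesis and breakdown in brown adipose tissue (BAT) was followed here through 9 genes, chosen by symbol from the 20295 genes of the count table. They encode the primer of glycogen (*Gyg*), both glycogen synthases (*Gys1* and *Gys2*), the branching enzyme (*Gbe1*), the liver and brain forms of glycogen phosphorylase (*Pygl* and *Pygb*), and 3 subunits that bring protein phosphatase 1 to glycogen (*Ppp1r3b*, *Ppp1r3c* and *Ppp1r3d*). The muscle phosphorylase is not among the 9 and was counted within a list of 23 other glycogen genes. Glycogen is a branched glucose polymer that is built on glycogenin, extended by glycogen synthase from UDP-glucose and branched by the branching enzyme. Glycogen phosphorylase releases glucose 1-phosphate from it. The phosphatase at its targeting subunits dephosphorylates both enzymes, which activates the synthase and inactivates the phosphorylase, whereas cAMP signaling does the opposite through kinases. Brown adipocytes store glycogen beside lipid droplets, and the store is known to turn over with sympathetic activity.

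Poly(A) RNA of BAT was sequenced from 40 male mice in 8 groups of 5, all kept at 29 °C. C-3BO mice carry a *Gpr3* transgene behind the CAG promoter in the *Rosa26* locus, which a *Ucp1*-driven Cre switches on in cells that express *Ucp1*. GPR3 is a receptor that signals through Gs without a ligand. Their controls were littermates with the transgene or the Cre alone, aged 13 to 19 weeks like the C-3BO mice, and both genotypes were fed chow or changed to HFD with 60 kcal% fat for 7 days. The injected mice, labelled wild type, were 15-week-old control littermates of another *Gpr3* line with an inducible Cre. They received the β3-adrenergic agonist CL-316,243 (CL) at 1 mg/kg, or saline at 10 µL/g, daily for 9 days on chow or on HFD, where the injections began 2 days before the diet was changed. Tissue was taken on the day after the last injection.

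Library totals lay between 849126 and 15260516 counts, and counts of single members between 15 and 18172. *Gpr3* reached 266 to 918 CPM (a gene's share of the library total scaled by edgeR's TMM factor) in C-3BO mice and at most 0.743 CPM in their controls. *Ucp1*, which defines the brown adipocyte, was at 1116 CPM or more in each mouse. The 12 libraries with the lowest totals, namely both injected HFD groups and replicates 4 and 5 of HFD C-3BO, also held liver transcripts, with *Alb* at 62.1 CPM or more against at most 1.62 CPM elsewhere, and transcripts of epididymis. In the injected mice, diet and this difference between libraries cannot be told apart. Summed CPM of 8 skeletal muscle markers ranged from 672 to 8597 in chow control mice, 342 to 3346 in chow C-3BO mice and 9.30 to 2257 in chow saline mice, with every other group lower in its median. In whole tissue, fewer cells of a type and less RNA per cell cannot be told apart.

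Per kilobase of counted exon, the scale on which different genes can be set side by side, *Pygl* had the highest median over all 40 libraries at 252 CPM/kb. *Ppp1r3b* followed at 157, *Gbe1* at 130, *Gys1* at 107 and *Gyg* at 93.7 CPM/kb. *Ppp1r3c* (55.8), *Pygb* (45.0), *Gys2* (28.7) and *Ppp1r3d* (18.4 CPM/kb) were lower. The highest group mean exceeded the lowest 4.72-fold for *Gys2*, 3.39-fold for *Pygl*, 3.13-fold for *Ppp1r3b* and 2.71-fold for *Ppp1r3c*. For the other 5 members this ratio lay between 1.39 (*Gys1*) and 2.06 (*Ppp1r3d*). All 9 members passed the filter on low counts, and differences between groups were tested with edgeR's quasi-likelihood test over 13277 genes, with a call at a Benjamini-Hochberg adjusted p under 0.05.

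**Figure D1:**
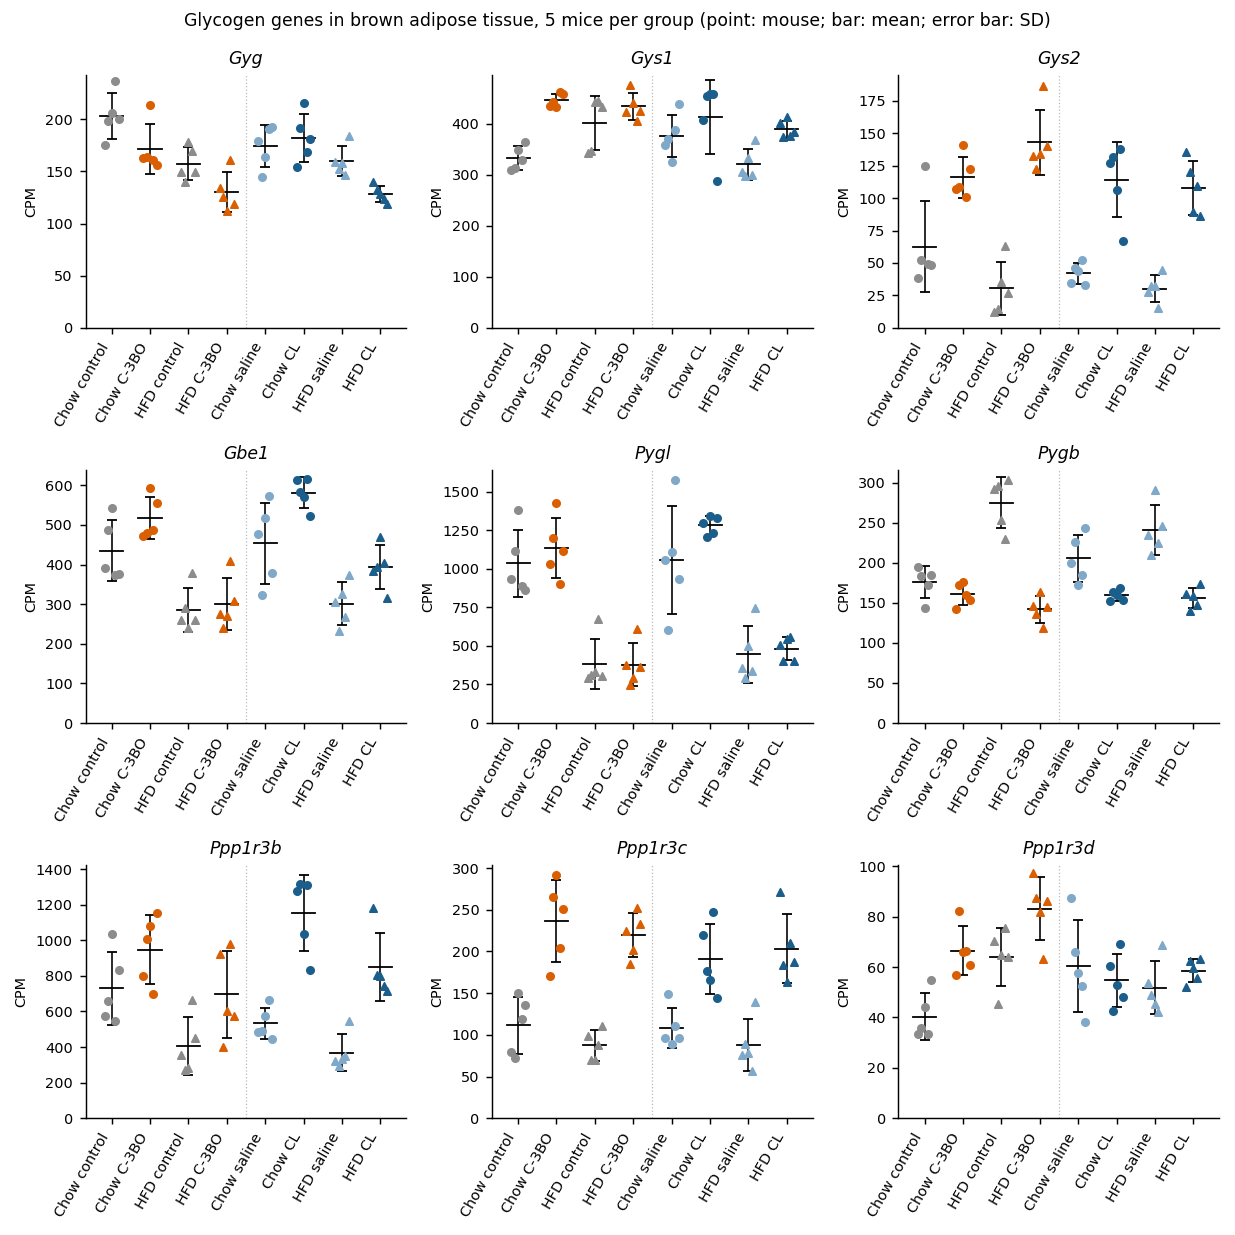
CPM (y axis) of the 9 members in each mouse, by group (x axis), with circles for chow, triangles for HFD, a horizontal bar for the mean and an error bar for the SD (n = 5). *Pygl* splits by diet, with chow means of 1035 to 1283 CPM and HFD means of 378 to 482 CPM, whereas *Gys2* splits by genotype and treatment, with means of 108 to 143 CPM in the C-3BO and CL groups and 30.3 to 62.6 CPM in the others.

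Promoter windows of the 250 bases before the annotated start were at hand for 7 of the 9 members from RefSeq on GRCm38 and were searched on both strands for the cAMP response element TGACGTCA, its shorter core TGACG, which the full element contains, and the E-box CACGTG. The windows of 3 members are printed because they carry a match and because these members moved in different ways: *Ppp1r3c* with genotype and treatment, *Pygl* with diet and *Pygb* with both. They lie at chr19:36736605-36736854 on the minus strand, chr12:70227684-70227933 on the minus strand and chr2:150786546-150786795 on the plus strand, and capitals mark the matches.

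Ppp1r3c: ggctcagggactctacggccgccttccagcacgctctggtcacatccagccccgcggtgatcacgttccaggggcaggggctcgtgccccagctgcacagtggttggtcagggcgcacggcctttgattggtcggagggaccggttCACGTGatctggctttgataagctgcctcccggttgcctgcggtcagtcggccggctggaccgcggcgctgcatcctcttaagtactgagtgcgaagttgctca

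Pygl: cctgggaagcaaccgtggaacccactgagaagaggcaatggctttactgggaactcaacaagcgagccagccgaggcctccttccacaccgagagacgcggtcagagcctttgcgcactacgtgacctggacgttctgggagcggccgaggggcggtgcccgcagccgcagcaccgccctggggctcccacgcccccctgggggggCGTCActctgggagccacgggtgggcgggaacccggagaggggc

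Pygb: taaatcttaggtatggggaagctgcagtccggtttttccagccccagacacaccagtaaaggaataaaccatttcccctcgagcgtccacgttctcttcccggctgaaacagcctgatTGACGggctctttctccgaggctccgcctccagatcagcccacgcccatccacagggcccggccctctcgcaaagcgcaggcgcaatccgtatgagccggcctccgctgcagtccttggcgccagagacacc

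The *Ppp1r3c* window holds an E-box that begins 104 bases before the start, and 6.02% of the 32851 promoters in the same table hold one. *Pygl* holds the core on the opposite strand, 44 bases before the start, and *Pygb* holds it 132 bases before the start, as do 17.8% of promoters. *Ppp1r3d* has 2 copies of the core, of which 1 overlaps an E-box. None of these letters stand in the windows of *Gyg*, *Gys1* and *Gbe1*, and the full element, held by 1.55% of promoters, was found in none of the 7 windows. A match describes letters only and was not tested for binding.

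CL raised 3 of the 9 members on chow and lowered 1. *Gys2*, *Ppp1r3b* and *Ppp1r3c* rose and *Pygb* fell, beside 9.16% of all tested genes called higher and 6.13% called lower. On HFD, CL raised 4 members, the same 3 and *Gys1*, and lowered *Pygb* and *Gyg*, beside 12.7% of tested genes higher and 10.8% lower. The members' median log2 fold change was 0.28 on each diet, against -0.01 over all tested genes on each.

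C-3BO mice on chow had 4 members higher than control mice (*Gys1*, *Gys2*, *Ppp1r3c* and *Ppp1r3d*), beside 15.8% of tested genes. No member was called lower, whereas 15.9% of tested genes were, 1 member was lower at an unadjusted p under 0.05 and DESeq2 called that 1, *Gyg*. On HFD, *Gys2*, *Ppp1r3b* and *Ppp1r3c* were higher (19.3% of tested genes) and *Pygb* and *Gyg* were lower (15.5%). The members' median log2 fold change was 0.38 on chow and 0.11 on HFD, against -0.03 and -0.02 over all tested genes. *Gys2* and *Ppp1r3c* were the members called higher in all 4 of these comparisons.

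*Pygl* and *Gbe1* were lower on HFD than on chow in all 4 arms. In the saline and CL arms all HFD libraries and no chow library held liver transcripts. There, diet and this difference between libraries cannot be told apart. In control mice 5 members fell (*Gys2*, *Gyg*, *Gbe1*, *Pygl* and *Ppp1r3b*), beside 17.5% of tested genes, and 3 rose (*Gys1*, *Pygb* and *Ppp1r3d*), beside 15.4%. In C-3BO and in CL mice *Gyg*, *Gbe1* and *Pygl* fell, beside 12.2% and 12.7% of tested genes, and in saline mice *Gbe1* and *Pygl* fell, beside 8.04%. No member rose in these 3 arms, where 13.5% (C-3BO), 7.45% (saline) and 10.9% (CL) of tested genes did. DESeq2 also called 0 higher, and *Pygb* in saline mice was the only member to rise at an unadjusted p under 0.05. Each HFD group enters a diet comparison and a treatment comparison, so these results are not independent of each other.

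**Figure D2:**
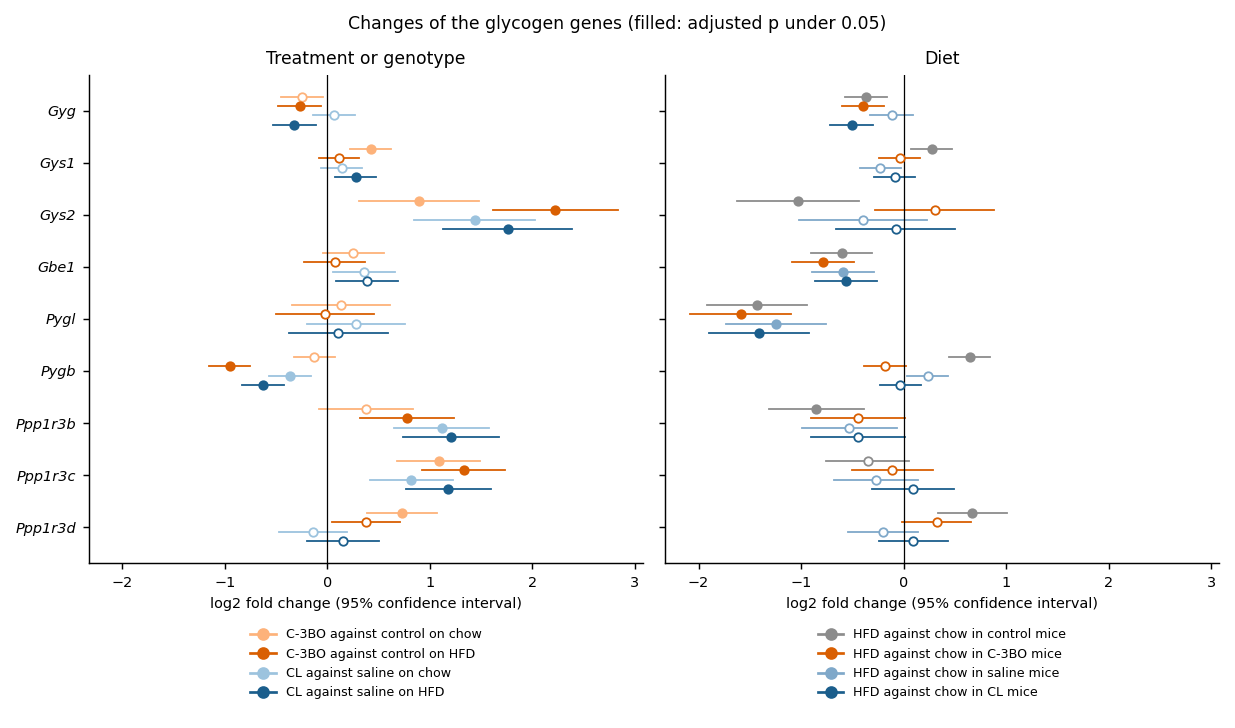
Log2 fold change (x axis) of each member (y axis) with its 95% confidence interval, for genotype and treatment on the left and for diet on the right. Filled points have an adjusted p under 0.05 by edgeR. *Gys2* reached 2.22 in C-3BO mice on HFD, and *Pygl* lay between -1.59 and -1.24 in the 4 diet comparisons.

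*Gyg* (RefSeq NM_013755, chromosome 3 of mm9, 20021970 to 20055015, minus strand) encodes glycogenin, the self-glucosylating protein on which a glycogen particle starts. Its means lay between 128 CPM in HFD CL mice and 203 CPM in chow control mice. On HFD, CL mice had 139, 132, 128, 123 and 119 CPM and saline mice 159, 152, 159, 146 and 184 CPM. All 5 CL mice lay below all 5 saline mice, with a log2 fold change of -0.32 (SE 0.10, adjusted p = 0.0218). The difference between C-3BO and control mice on HFD was -0.27 (SE 0.10, adjusted p = 0.0365), with 4 of 5 C-3BO mice below all control mice. The CL call was lost without HFD saline replicate 5 or HFD CL replicate 4 or 5 (adjusted p = 0.0516 to 0.0818). The C-3BO call was lost without HFD control replicate 3 or 4 or HFD C-3BO replicate 2, 3 or 5 (adjusted p = 0.0708 to 0.109). On chow the C-3BO value of -0.24 (adjusted p = 0.0627) passed in 6 of 17 alternatives. HFD lowered *Gyg* by a log2 fold change of -0.37 (SE 0.10, adjusted p = 0.00452) in control mice, -0.40 (SE 0.10, adjusted p = 0.00409) in C-3BO mice and -0.50 (SE 0.10, adjusted p = 0.000417) in CL mice. Scaled by library totals alone, the C-3BO value was -0.21 (adjusted p = 0.0619). In saline mice the value was -0.12 (95% interval -0.33 to 0.09). Summed CPM of skeletal muscle markers had medians of 6178 on chow and 10.05 on HFD in control mice, and 1356 and 22.04 in C-3BO mice. In saline mice these medians were 1010 and 50.8, and in CL mice 66.8 and 172. The part of muscle transcripts in the *Gyg* results was not tested.

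*Gys1* (NM_030678, chromosome 7, 52690209 to 52711987, plus strand), the synthase of muscle and most other tissues, varied least of the members. On chow, C-3BO mice had 436, 443, 433, 462 and 458 CPM and control mice 309, 313, 349, 329 and 364 CPM. The groups did not overlap, and the log2 fold change was 0.42 (SE 0.10, adjusted p = 0.00101). Skeletal muscle, which also expresses *Gys1*, had the higher marker sums in the control mice of this comparison, and its part in the result was not tested. On HFD the difference was 0.11 (95% interval -0.09 to 0.31). CL mice on HFD had 374 to 413 CPM against 297 to 369 CPM with saline, without overlap and with a log2 fold change of 0.28 (SE 0.10, adjusted p = 0.0360). Of 17 alternatives 8 kept this call, with adjusted p from 0.0165 to 0.296, and it was lost without HFD saline replicate 1, 2, 3 or 4 or HFD CL replicate 1 or 3 (0.24 to 0.29). CL on chow gave 0.14 (adjusted p = 0.372), and without CL replicate 5, the lowest mouse, 0.24 (adjusted p = 0.0452). The rise on HFD in control mice, at 0.27 (SE 0.10, adjusted p = 0.0290), was kept by 10 of 17 alternatives and lost without chow control replicate 1, 2 or 4 or HFD control replicate 3, 4 or 5 (0.23 to 0.26, adjusted p = 0.0651 to 0.0980).

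*Gys2* (NM_145572, chromosome 6, 142371133 to 142421629, minus strand) is the synthase best known from liver. On chow, saline mice had 34.9, 46.3, 43.8, 52.5 and 33.2 CPM and CL mice 127, 132, 106, 138 and 66.8 CPM. On HFD, saline mice had 27.5, 32.3, 31.9, 15.04 and 44.8 CPM and CL mice 135, 120, 89.3, 109 and 85.9 CPM. Each CL mouse lay above each saline mouse on the same diet. Chow CL replicate 5, the lowest of its group, stood apart in *Ucp1* too, at 1644 CPM within the saline range of 1267 to 1865 CPM, whereas the other 4 CL mice had 5943 to 8986 CPM. The log2 fold change was 1.44 (SE 0.29, adjusted p = 0.000693), or 2.70-fold, on chow and 1.76 (SE 0.31, adjusted p = 5.77e-05), or 3.38-fold, on HFD. Without chow CL replicate 5 the chow value was 1.58 (adjusted p = 0.000253). Liver marker sums were 86.2 to 249.98 CPM in HFD saline and 142 to 283 CPM in HFD CL mice, and their part in the HFD value was not tested. The effect of CL differed between the diets by 0.32 (95% interval -0.53 to 1.17, adjusted p = 0.854).

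In C-3BO mice *Gys2* was at 107, 108, 141, 101 and 123 CPM on chow, against 38.1, 52.6, 125, 49.3 and 48.2 CPM in control mice. Control replicate 3 lay among the C-3BO mice and its 4 group members below them. On HFD, C-3BO mice had 132, 122, 134, 186 and 140 CPM and control mice 12.2, 14.5, 35.5, 63.3 and 26.8 CPM, with no overlap. The log2 fold change was 0.89 (SE 0.29, adjusted p = 0.0166), or 1.86-fold, on chow and 2.22 (SE 0.30, adjusted p = 3.79e-07), or 4.67-fold, on HFD. The chow call was lost without control replicate 1, at 0.78 (adjusted p = 0.0513). Without the 2 HFD C-3BO libraries that held liver transcripts the HFD value was 2.08 (adjusted p = 1.39e-05).

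The C-3BO effect on *Gys2* was larger on HFD than on chow by 1.33 (SE 0.41, 95% interval 0.50 to 2.16), which did not pass the adjusted threshold (adjusted p = 0.0756). It passed in 3 of 28 alternatives, with adjusted p from 0.00473 to 0.248 over all of them. Without the 2 libraries that held liver transcripts it was 1.19 (adjusted p = 0.221), and with 1 library left out it lay between 0.92 and 1.77. It passed with the replicate number as a block, at 1.39 (adjusted p = 0.0424), with library totals alone, at 1.40 (adjusted p = 0.0385), and without HFD control replicate 4, at 1.77 (adjusted p = 0.00473). HFD lowered *Gys2* in control mice by a log2 fold change of -1.03 (SE 0.29, adjusted p = 0.00625), and 4 of 5 HFD mice lay below all chow mice. Without chow control replicate 3 this value was -0.62 (adjusted p = 0.0866), and with only the libraries compared it was -1.03 (adjusted p = 0.0828). In the other 3 arms the change with diet was 0.30 (C-3BO), -0.40 (saline) and -0.07 (CL), none past the threshold.

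*Gbe1* (NM_028803, chromosome 16, 70314194 to 70569965, plus strand) encodes the branching enzyme, which makes the branch points of glycogen. On chow, control mice had 391, 488, 543, 373 and 377 CPM and C-3BO mice 473, 479, 594, 487 and 555 CPM. On HFD, control mice had 261, 290, 239, 380 and 261 CPM and C-3BO mice 276, 240, 271, 409 and 309 CPM. The diets did not overlap in C-3BO mice, and in control mice only HFD replicate 4 lay within the chow range. In the injected mice, chow saline libraries ranged from 322 to 574 CPM and HFD saline libraries from 233 to 373 CPM, while the CL ranges, 522 to 617 CPM on chow and 317 to 470 CPM on HFD, did not overlap. HFD changed *Gbe1* by a log2 fold change of -0.60 (SE 0.15, adjusted p = 0.00162) in control, -0.78 (SE 0.15, adjusted p = 0.000166) in C-3BO, -0.59 (SE 0.15, adjusted p = 0.00589) in saline and -0.56 (SE 0.15, adjusted p = 0.00493) in CL mice. CL shifted it by 0.36 (adjusted p = 0.0941) on chow and 0.38 (adjusted p = 0.0562) on HFD, neither past the threshold. On HFD 4 of 17 alternatives called the CL difference, among them leaving out HFD saline replicate 5 (0.48) or HFD CL replicate 5 (0.45), and on chow leaving out saline replicate 4 did (0.46, adjusted p = 0.0384).

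*Pygl* (NM_133198, chromosome 12, 71291802 to 71328670, minus strand), the liver form of glycogen phosphorylase, removes glucose units from the outer chains. Chow control mice had 932, 1113, 1380, 888 and 862 CPM and HFD control mice 294, 314, 329, 673 and 307 CPM. Chow C-3BO mice had 1035, 1199, 1426, 902 and 1117 CPM and HFD C-3BO mice 378, 248, 289, 608 and 366 CPM. Every HFD mouse of this cohort lay below every chow mouse, and the log2 fold change was -1.43 (SE 0.24, adjusted p = 1.47e-05), or 2.70-fold lower, in control mice and -1.59 (SE 0.24, adjusted p = 8.17e-06), or 3.01-fold lower, in C-3BO mice. Without the 2 C-3BO libraries that held liver transcripts the value in C-3BO mice was -1.90 (adjusted p = 1.31e-05).

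In the injected mice *Pygl* was at 1059, 607, 1107, 1576 and 934 CPM in chow saline libraries and at 355, 291, 499, 336 and 747 CPM in HFD saline libraries. CL mice had 1301, 1204, 1346, 1232 and 1330 CPM on chow and 505, 403, 544, 556 and 401 CPM on HFD. The CL groups did not overlap, and among saline mice only HFD replicate 5 rose above the lowest chow mouse. The log2 fold change was -1.24 (SE 0.24, adjusted p = 0.000549) with saline and -1.41 (SE 0.24, adjusted p = 5.23e-05) with CL. In both, diet and the liver transcripts of the HFD libraries cannot be told apart. CL itself shifted *Pygl* by 0.28 (95% interval -0.20 to 0.76) on chow and 0.11 (-0.37 to 0.59) on HFD, and the C-3BO genotype by 0.13 (-0.35 to 0.61) and -0.02 (-0.50 to 0.46). In the order of group means, HFD CL mice, at most 556 CPM, and chow control mice, at least 862 CPM, were the only neighbouring groups of any member that did not overlap.

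*Pygb* (NM_153781, chromosome 2, 150612532 to 150657484, plus strand) encodes the brain form of phosphorylase, which responds to AMP. On chow, saline mice had 200, 226, 173, 185 and 244 CPM and CL mice 153, 164, 160, 169 and 154 CPM. On HFD, saline mice had 234, 210, 291, 225 and 246 CPM and CL mice 162, 140, 159, 148 and 173 CPM. All CL mice lay below all saline mice on the same diet, with a log2 fold change of -0.36 (SE 0.10, adjusted p = 0.0101) on chow and -0.63 (SE 0.10, adjusted p = 1.43e-05) on HFD. Summed CPM of 6 macrophage markers was 262 to 678 in HFD saline mice and 108 to 346 in HFD CL mice. On chow it was 111 to 252 in saline mice and 88.5 to 314 in CL mice. The part of macrophage transcripts in the *Pygb* results was not tested.

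In C-3BO mice *Pygb* was at 142, 172, 177, 160 and 154 CPM on chow, where control mice had 195, 184, 143, 173 and 185 CPM. On HFD, C-3BO mice had 146, 136, 164, 118 and 145 CPM and control mice 292, 296, 253, 230 and 304 CPM. The chow groups overlapped, with a log2 fold change of -0.13 (95% interval -0.33 to 0.07), and the HFD groups lay far apart, at -0.95 (SE 0.10, adjusted p = 2.90e-09), or 1.94-fold lower in C-3BO mice. The C-3BO effect differed between the diets by -0.83 (SE 0.14, adjusted p = 0.000667), one of 2.08% of tested genes with a call for this difference, and the adjusted p stayed at 0.00699 or below in all 28 alternatives. HFD raised *Pygb* in control mice by 0.64 (SE 0.10, adjusted p = 4.20e-06), where the groups did not overlap, and the change was -0.18 (95% interval -0.39 to 0.02) in C-3BO mice. Macrophage marker sums were 86.2 to 190 in HFD control mice and 79.3 to 101 in HFD C-3BO mice.

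*Ppp1r3b* (NM_177741, chromosome 8, 36438795 to 36451191, plus strand) encodes the targeting subunit first described in liver. On chow, saline mice had 486, 492, 575, 662 and 447 CPM and CL mice 1275, 1317, 1034, 1310 and 835 CPM. On HFD, saline mice had 322, 294, 331, 349 and 548 CPM and CL mice 1180, 806, 801, 742 and 717 CPM. There was no overlap on either diet, and the log2 fold change was 1.12 (SE 0.23, adjusted p = 0.000706), or 2.17-fold, on chow and 1.20 (SE 0.23, adjusted p = 0.000176), or 2.30-fold, on HFD. Without chow CL replicate 5, the lowest of its group, the chow value was 1.21 (adjusted p = 0.000365). In C-3BO mice the values overlapped those of control mice, with 799, 1004, 1083, 699 and 1155 CPM against 574, 659, 1037, 548 and 833 CPM on chow. On HFD, C-3BO mice had 920, 398, 603, 981 and 574 CPM and control mice 353, 273, 283, 666 and 449 CPM. The C-3BO log2 fold change was 0.38 (95% interval -0.08 to 0.83) on chow and 0.78 (SE 0.23, adjusted p = 0.00702) on HFD, and without the 2 libraries that held liver transcripts the HFD value was 0.66 (adjusted p = 0.0523). HFD lowered *Ppp1r3b* by -0.85 (SE 0.23, adjusted p = 0.00358) in control mice, and the values of -0.45 (C-3BO), -0.53 (saline) and -0.44 (CL) in the other arms did not pass the threshold.

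*Ppp1r3c* (NM_016854, chromosome 19, 36806221 to 36811094, minus strand) encodes the subunit known as protein targeting to glycogen, which also binds glycogen synthase and phosphorylase. On chow, control mice had 79.5, 72.1, 150, 119 and 136 CPM and C-3BO mice 170, 265, 292, 204 and 251 CPM. On HFD, control mice had 98.8, 69.4, 69.4, 88.3 and 111 CPM and C-3BO mice 225, 185, 202, 252 and 233 CPM. No C-3BO mouse overlapped its controls, and the log2 fold change was 1.09 (SE 0.20, adjusted p = 6.65e-05), or 2.12-fold, on chow and 1.33 (SE 0.20, adjusted p = 2.54e-06), or 2.51-fold, on HFD. The HFD value was 1.22 (adjusted p = 0.000113) without the 2 libraries that held liver transcripts.

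In the injected mice *Ppp1r3c* was at 96.2, 149, 88.5, 110 and 96.5 CPM with saline on chow and at 220, 177, 166, 247 and 144 CPM with CL. On HFD, saline mice had 75.9, 88.6, 78.5, 57.1 and 140 CPM and CL mice 271, 184, 164, 210 and 187 CPM. The groups were apart on HFD, and on chow CL replicate 5 fell just below saline replicate 2. CL gave a log2 fold change of 0.82 (SE 0.20, adjusted p = 0.00384), or 1.77-fold, on chow and 1.18 (SE 0.20, adjusted p = 4.37e-05), or 2.26-fold, on HFD. Without chow CL replicate 5 the chow value was 0.91 (adjusted p = 0.00180). HFD changed *Ppp1r3c* by -0.35 to 0.09 across the 4 arms, with no call.

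*Ppp1r3d* (NM_001085501, chromosome 2, 178145911 to 178149168, minus strand), a further targeting subunit, was the least abundant member per kilobase. On chow, C-3BO mice had 57.0, 82.2, 66.2, 66.5 and 60.9 CPM and control mice 33.4, 35.9, 44.3, 33.6 and 54.7 CPM. The groups did not overlap, and the log2 fold change was 0.73 (SE 0.17, adjusted p = 0.000938). On HFD it was 0.38 (adjusted p = 0.0692), and 3 of 18 alternatives called it, among them leaving out HFD control replicate 4 (0.45) or HFD C-3BO replicate 4 (0.46). CL gave -0.14 (95% interval -0.47 to 0.19) on chow and 0.15 (-0.19 to 0.50) on HFD. The C-3BO effect exceeded the CL effect on chow by 0.87, a difference that 6.24% of tested genes passed, at an adjusted p of 0.0205. It did not pass with only the libraries compared, at 0.89 (adjusted p = 0.0510), or without chow saline replicate 1, at 0.72 (adjusted p = 0.0526). HFD raised *Ppp1r3d* by 0.67 (SE 0.17, adjusted p = 0.00173) in control mice.

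For no member did edgeR call the effect of CL different between the diets, where 0.0151% of tested genes were called, and 1 member, *Gyg*, had an unadjusted p under 0.05. The C-3BO and CL effects on HFD likewise differed for 0 members, beside 1.80% of tested genes, with *Pygb* alone at an unadjusted p under 0.05. DESeq2 called 0 members in each of these. The intervals remained wide for *Gys2* (-0.39 to 1.32 on HFD) and *Ppp1r3b* (-1.07 to 0.23), so that sizable differences lie within them. The C-3BO and the CL effects come from separate cohorts of different age and handling.

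The balance of isoenzymes was expressed per mouse as the share of *Gys2* in the sum of both synthases and of *Pygl* in the sum of *Pygl* and *Pygb*, each in CPM per kilobase. *Gys2* made up 13.5% ± 2.75 (SD, n = 5) of synthase transcript in chow saline mice and 27.4% ± 2.88 in chow CL mice. On HFD the shares were 11.4% ± 2.99 with saline and 27.6% ± 4.04 with CL. C-3BO mice had 26.4% ± 2.94 on chow and 31.3% ± 4.66 on HFD, and control mice 19.9% ± 7.59 and 8.91% ± 4.71. The groups did not overlap with CL on either diet or in C-3BO mice on HFD, each at the smallest p that 5 mice against 5 allow (exact permutation test, two-sided, p = 0.00794, adjusted p = 0.0212 over 16 tests). In C-3BO mice on chow the difference of 6.55 percentage points did not pass (exact permutation p = 0.119, adjusted p = 0.147). Without chow control replicate 3, whose share was 33.1%, it was 9.86 percentage points (exact permutation test, adjusted p = 0.0212). With HFD the share fell by 10.95 percentage points in control mice (exact permutation p = 0.0238, adjusted p = 0.0423), a call that was lost without chow control replicate 2 or 4 or HFD control replicate 1, 2, 3 or 5 (-11.6 to -9.90).

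*Pygl* held 86.4% to 91.6% of this phosphorylase pair in the group means on chow and 63.7% to 80.5% on HFD. On HFD the share fell by 24.8 percentage points in control mice, fell by 13.5 in C-3BO mice and fell by 11.1 in CL mice, each without overlap (exact permutation test, two-sided, p = 0.00794, adjusted p = 0.0212). In saline mice it fell by 16.3 percentage points (exact permutation p = 0.0159, adjusted p = 0.0363). In saline and CL mice, diet and the liver transcripts of the HFD libraries cannot be told apart. On HFD the share was 80.5% ± 2.96 (SD, n = 5) with CL and 70.0% ± 6.10 with saline (exact permutation p = 0.0238, adjusted p = 0.0423), a call that was lost without HFD saline replicate 1, 2, 3 or 4 or HFD CL replicate 1, 3 or 4 (9.26 to 10.4 percentage points). It was 76.9% ± 6.82 in C-3BO and 63.7% ± 9.40 in control mice (exact permutation p = 0.0476, adjusted p = 0.0693), and without HFD control replicate 4 the difference passed at 17.3 percentage points. Without the 2 C-3BO libraries that held liver transcripts it was 9.505 percentage points (exact permutation test, adjusted p = 0.214).

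**Figure D3:**
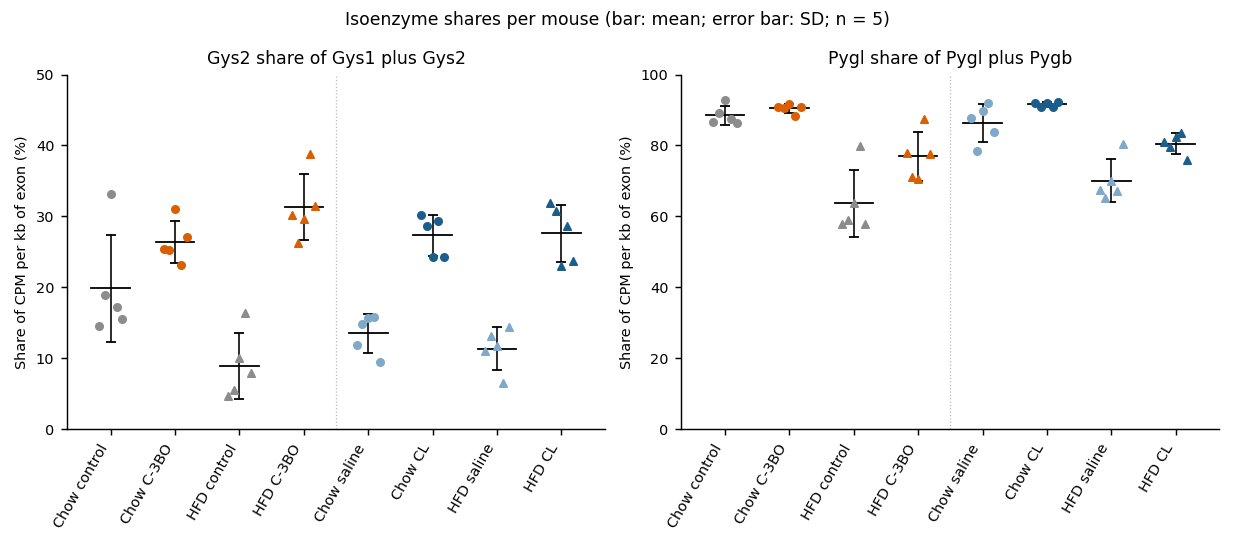
Share of *Gys2* in both synthases (left) and of *Pygl* in *Pygl* plus *Pygb* (right), in percent of CPM per kb of exon (y axis), for each mouse by group (x axis), with the mean and SD (n = 5). The *Gys2* share stands near 26% to 31% in C-3BO and CL groups on both diets, and the *Pygl* share is lower in each HFD group than in the chow group of the same arm.

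*Gbe1* and *Pygl* varied together from mouse to mouse. The 40 libraries share groups and diets and differ in sequencing depth. Over them, Pearson's r of the log2 CPM of *Gbe1* and *Pygl* was 0.928, and 0.880 after the group means were removed. *Ppp1r3c* and *Gys2* had an r of 0.876 (0.508 within groups), and *Gys2* and *Pygb* one of -0.867 (-0.416 within groups). The gene-wide pattern most like that of *Pygb*, the member with the strongest F test over the 8 groups, was that of *Plin4* (r = 0.889 over 40 libraries), a lipid droplet coat protein, followed by *Blcap* (0.887), *Esyt1* (0.860), 2610034B18Rik (0.853) and *Tln1* (0.849), out of 13276 genes compared. Within groups these values were between 0.443 and 0.572.

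**Figure D4:**
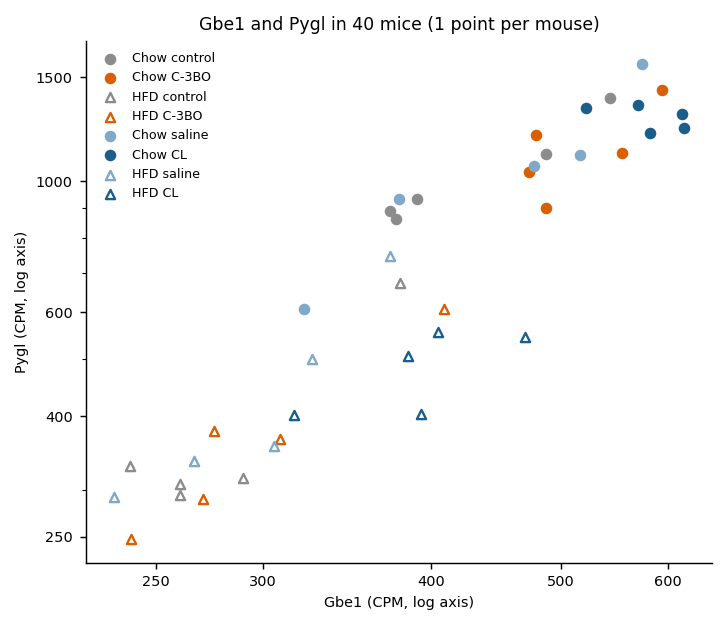
*Gbe1* (x axis) against *Pygl* (y axis) in CPM on log axes, 1 point per mouse, with filled circles for chow and open triangles for HFD. The mice fall along 1 band (r = 0.928 of log2 CPM), with HFD mice at 248 to 747 CPM of *Pygl* and chow mice at 607 to 1576 CPM.

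Of the 23 other glycogen genes, all of which were tested, CL raised 4 and lowered 3 on chow, beside 9.16% and 6.13% of tested genes, and raised 3 and lowered 3 on HFD, beside 12.7% and 10.8%. C-3BO mice had 5 higher and 5 lower on chow (15.8% and 15.9% of tested genes) and 6 higher and 5 lower on HFD (19.3% and 15.5%). The list's median log2 fold change was 0.15 and 0.05 with CL and 0.04 and 0.14 in C-3BO mice, on chow and HFD respectively. *Pgm2*, a phosphoglucomutase that interconverts glucose 1-phosphate and glucose 6-phosphate, rose with CL by a log2 fold change of 0.41 (adjusted p = 0.00696) on chow and 0.62 (adjusted p = 3.63e-05) on HFD, and by 0.50 (adjusted p = 0.000304) in C-3BO mice on HFD. *Phkb*, a regulatory subunit of phosphorylase kinase, rose by 0.48 (adjusted p = 0.000533) with CL on chow and by 0.49 (adjusted p = 0.000132) in C-3BO mice on HFD. It was also called higher in C-3BO mice on chow, with means of 142 CPM against 106 CPM in control mice. *Gaa*, the lysosomal enzyme that degrades glycogen, was higher in C-3BO mice by 0.47 (adjusted p = 5.96e-05) on chow and 0.51 (adjusted p = 1.35e-05) on HFD.

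*Ppp1cb*, a catalytic subunit of protein phosphatase 1, was lower in C-3BO mice on chow, with a mean of 478 CPM against 1025 CPM in control mice and a log2 fold change of -1.10 (adjusted p = 6.27e-08). The gene listed as *Pgm1* on chromosome 5 fell there by 0.70 on the log2 scale (adjusted p = 0.000217), with means of 8.44 CPM against 13.7 CPM. *Pgm2*, listed on chromosome 4, had means of 544 CPM in C-3BO and 472 CPM in control mice on chow. With CL on HFD, *Gsk3a*, a kinase of glycogen synthase, rose by 0.43 (adjusted p = 0.00445), and *Ppp1r3e*, a targeting subunit, fell by 0.62 on the log2 scale (adjusted p = 0.00744). *Gsk3a* was also called higher in C-3BO mice on chow and on HFD. *Ppp1cb*, *Pgm1* and *Ppp1r3e* were also called lower in C-3BO mice on HFD, and *Ppp1cb* with CL on HFD. *Pygm*, the muscle phosphorylase, was lower with CL on chow by -2.61 (adjusted p = 0.00508), and the skeletal muscle marker sum was 9.30 to 2257 CPM in saline and 10.0 to 127 CPM in CL mice of this comparison. The other 2 genes of the list that CL lowered on chow were *Ppp1r3a* and *Phkg1*, also genes of skeletal muscle. *Pygm* and *Phkg1* were also called lower in C-3BO mice on chow. The part of the muscle transcripts in these results was not tested.

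With HFD, 10 of the 23 fell and 1 rose in control mice, 11 fell and 2 rose in C-3BO mice, 2 fell and 0 rose in saline mice, and 8 fell and 1 rose in CL mice. Of all tested genes, 17.5% fell and 15.4% rose in control mice, 12.2% and 13.5% in C-3BO mice, 8.04% and 7.45% in saline mice, and 12.7% and 10.9% in CL mice. The genes that fell in both control and C-3BO mice include *Pygm*, *Ppp1r3a*, the targeting subunit of skeletal muscle, and *Phkg1*, the muscle catalytic subunit of phosphorylase kinase, the last 2 of which were named after their values were seen. Mean levels in control mice were 249 CPM on chow and 13.9 CPM on HFD for *Pygm*, 36.5 and 0.202 CPM for *Ppp1r3a*, and 27.2 and 2.62 CPM for *Phkg1*. The HFD mean of *Ppp1r3a*, whose median there was 0 CPM, lies below the level of 3 counts in these libraries (0.206 to 0.358 CPM). The median of the skeletal muscle marker sum was 6178 CPM on chow and 10.05 CPM on HFD in control mice and 1356 and 22.04 CPM in C-3BO mice, and its part in these counts and in the list's median was not tested. The list's median log2 fold change lay between -0.28 and -0.12 in these 4 comparisons, beside -0.37 to -0.09 for the 9 members and -0.01 to 0.03 for all tested genes.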

How the data were processed

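BAT of 40 mice was analysed from the deposited counts. From poly(A) RNA the authors made TruSeq libraries, aligned the reads with STAR against mm9, passed them through HOMER, and deposited raw read counts per gene that iRNA-seq took over RefSeq exons. Versions and strandedness are not given in the sources used here.

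Genes were kept by filterByExpr (minimum count of 10) of edgeR 4.0.16, leaving 13277 of 20295, and scaled by TMM factors. In R 4.3.3 the quasi-likelihood fit had a term for each group and used all 40 libraries, giving 8 comparisons of 2 groups and 4 differences between effects. The study used DESeq2 with a log2 fold change criterion of 1, and DESeq2 1.42.0 was an alternative here. Others were RLE factors, library totals alone, other filters, only the libraries compared, a replicate block, leaving out each library, and leaving out 2 libraries with liver transcripts. The edgeR step was tested on simulated counts. Shares used exact permutation tests over 16 comparisons. Standard errors come from the F statistic. Log2 CPM used a prior count of 2. The smallest level shown, taken as 3 counts, was 0.206 to 3.01 CPM (counting error only). Mm9 positions are numbered from 1.

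The text names all 9 members, up to 3 other glycogen genes with the lowest adjusted p in each treatment comparison, and the 5 genes most correlated with the member of the lowest F-test p. The members and lists were chosen with earlier results of these data known. The labels give mice as replicates. No pair of libraries within a group was identical.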

Additional observations from a re-analysis of the deposited data

Results flagged for a closer look

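Of 72 groups of 5 mice, 1 for each member and group, 6 held a mouse that stood apart from the others by Dixon's test at the 95% level, which chance gives in about 1 of 20 groups. *Gys2* was at 125 CPM in chow control replicate 3, with the nearest mouse at 52.6 CPM, and at 186 CPM in HFD C-3BO replicate 4 (nearest 140 CPM). *Gyg* was at 214 CPM in chow C-3BO replicate 3 (nearest 163 CPM). *Pygl* was at 673 CPM in HFD control replicate 4 (nearest 329 CPM). That mouse also had *Ucp1* at 9443 CPM, against 2573 to 5255 CPM in the rest of its group. *Ppp1r3b* was at 548 CPM in HFD saline replicate 5 (nearest 349 CPM) and at 1180 CPM in HFD CL replicate 1 (nearest 806 CPM). Each of these mice was the highest of its group. Liver marker sums were 425 CPM in HFD C-3BO replicate 4 and 402 CPM in replicate 5, whose *Gys2* was the nearest. HFD CL replicate 1 had the highest liver marker sum of its group, at 283 CPM. HFD saline replicate 5 had 220 CPM, below replicate 1 of its group at 249.98 CPM, whose *Ppp1r3b* was at 322 CPM. The part of liver transcripts in these values was not tested.

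The C-3BO effect on *Pygb* differed between HFD and chow by -0.83 on the log2 scale (edgeR adjusted p = 0.000667), with means of 142 CPM in C-3BO and 275 CPM in control mice on HFD and of 161 and 176 CPM on chow. On chow, the C-3BO effect on *Ppp1r3d* exceeded the CL effect by 0.87 on the log2 scale (edgeR adjusted p = 0.0205), with means of 66.5 CPM in C-3BO and 40.4 CPM in control mice and of 54.7 CPM with CL and 60.4 CPM with saline.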

How the results depend on the processing

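For single genes and comparisons 2438 alternative values were computed, of which 2331 kept direction and side of the threshold. Another 24 passed it newly and 32 no longer passed it, in the same direction. The other 51 changed direction, with a call neither in the main fit nor in the alternative. Where either was called, 0 changed direction. Library totals alone shifted the median log2 fold change of all genes by up to -0.23 (C-3BO on chow) and 0.21 (HFD in C-3BO mice). The number of members with a different C-3BO effect on HFD than on chow rose from 1 to 2 with library totals alone and with the replicate block, and was 1 to 2 with 1 library left out. That with different C-3BO and CL effects on chow fell from 1 to 0 with only the libraries compared, and was 0 to 1 with 1 library left out.

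With 1 library left out, the *Gys2* share differed by 5.23 to 9.86 percentage points for C-3BO on chow, and for HFD by -12.8 to -7.64 in control, 2.99 to 6.15 in C-3BO and -0.824 to 1.38 in CL mice (reversed at -0.536, -0.531, -0.824, -0.545 and -0.0309, without chow CL replicates 3 and 5 and HFD CL replicates 1, 2 and 4). The *Pygl* share differed by 1.37 to 3.00 for C-3BO on chow, 10.6 to 17.3 for C-3BO on HFD, 3.22 to 6.62 for CL on chow and 9.26 to 13.1 for CL on HFD. The causes were not tested.

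Same-numbered mice did not deviate together in all pairs of any comparison (Pearson's r of residuals from -0.376 to 0.444), and the main test did not pair them. These correlations cannot exclude a pairing of some mice. With the replicate block, 5 members in place of 6 were called for CL on HFD, and the counts of members in the other 7 comparisons of 2 groups were unchanged.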
